A study of Mus musculus with 2 samples.

Results

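The genes described here encode the hormones and amine enzyme of the enteroendocrine cells of the colon. They are Tph1, Chga, Chgb, Gcg, Pyy, Insl5, Sst, Cck, Nts and Tac1, a list of 10 genes out of the 32285 in the deposited matrices, and all 10 were found there. Their levels were read in enteroendocrine-like nuclei, which were told from all others by Lmx1a, Rimbp2, Kcnb2, Cacna1a, Cadps and Neurod1 and not by the 10 genes themselves. Nuclei with 400 to 5000 detected genes and at most 10% mitochondrial counts were used, and 279 of 9586 such nuclei were enteroendocrine-like.

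Single-nucleus RNA sequencing was done on whole frozen colon of 2 groups of mice. Both groups were 8 to 12 weeks old and had chronic colitis from 4 cycles of 3 days of 2% dextran sulfate sodium (DSS) in the drinking water and 4 days of recovery, with tissue taken on day 28. HIF-1α KO mice were Ncr1cre+ Hif-1α fl+/fl+, in which Cre under the control of the NKp46 gene Ncr1 deletes Hif-1α in NKp46+ innate lymphoid cells, and WT mice were their littermates. The deletion is therefore not aimed at the epithelium. Each genotype gave 1 library from a pool of 3 animals, so n = 1 per genotype, no difference between genotypes had a replicate check, and no p-value is given. All intervals are exact 95% intervals that cover counting error only.

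The 2 libraries differed in depth. In WT mice 13492810 unique molecular identifiers (UMIs, each standing for a captured RNA molecule) were counted in 4896 barcodes, and in HIF-1α KO mice 25489277 in 4772. Enteroendocrine-like nuclei had a median of 2871 UMIs in WT and 5138 in HIF-1α KO mice, against 2037 and 4173 in all other nuclei. Levels are therefore given as counts per 1000000 UMIs of the same nuclei (CPM), and shares of nuclei with a UMI were also read after thinning each nucleus to 1000 UMIs. Nuclei with fewer UMIs were left out of the thinned shares. These were 63 HIF-1α KO nuclei, and no enteroendocrine-like nucleus was among them. The targeted gene Hif1a was at 172 CPM in WT and 199 CPM in HIF-1α KO nuclei, which checks nothing about the label, since Ncr1 itself had 1 and 0 UMIs in the libraries. Only 3 barcodes occurred in both libraries, and none of these was enteroendocrine-like in both.

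Enteroendocrine cells are rare secretory cells of the gut lining that sense the content of the lumen and release hormones from dense granules. Enterochromaffin cells make serotonin with tryptophan hydroxylase 1, the product of Tph1, and often carry the tachykinin gene Tac1. L cells of the distal gut make proglucagon, which gives glucagon-like peptides, together with peptide YY and, in the colon, insulin-like peptide 5. D cells make somatostatin, while cholecystokinin and neurotensin are mainly hormones of the small intestine. Chromogranins A and B, the products of Chga and Chgb, are proteins of the granules themselves.

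The promoters are shown for 2 genes of the L cells and 2 of the enterochromaffin cells, because most UMIs of the genes on these 2 sides lay in different subgroups of nuclei, as described further on. Each run is the 250 bases before the RefSeq start (GRCm38.p6), 5′ to 3′ on the strand of the gene: Gcg at chr2:62483654-62483903, Pyy at chr11:102107833-102108082 and Tph1 at chr7:46667378-46667627, all on the minus strand, and Chga at chr12:102554691-102554940 on the plus strand. None of the 4 windows overlaps a GENCODE exon of its gene. Capitals mark 4 motifs. The first is the TATA box, TATAAA, searched on the strand of the gene only. The others were searched on both strands and are CAGATG, an E-box of the kind that NEUROD1 binds, the homeodomain core TAATTA, which reads alike on both strands, and the core of the cAMP response element, which is TGACG on 1 strand and reads CGTCA on the other. No motif overlaps another in these 4 windows.
Gcg: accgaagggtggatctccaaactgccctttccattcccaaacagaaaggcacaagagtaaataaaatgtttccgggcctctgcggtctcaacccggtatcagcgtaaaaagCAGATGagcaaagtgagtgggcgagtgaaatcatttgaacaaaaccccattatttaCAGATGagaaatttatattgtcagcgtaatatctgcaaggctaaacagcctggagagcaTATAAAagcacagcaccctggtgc
Pyy: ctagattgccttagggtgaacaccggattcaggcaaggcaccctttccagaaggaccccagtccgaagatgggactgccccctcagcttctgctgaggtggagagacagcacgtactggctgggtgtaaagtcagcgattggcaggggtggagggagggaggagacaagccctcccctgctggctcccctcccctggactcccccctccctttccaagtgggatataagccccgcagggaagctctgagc
Tph1: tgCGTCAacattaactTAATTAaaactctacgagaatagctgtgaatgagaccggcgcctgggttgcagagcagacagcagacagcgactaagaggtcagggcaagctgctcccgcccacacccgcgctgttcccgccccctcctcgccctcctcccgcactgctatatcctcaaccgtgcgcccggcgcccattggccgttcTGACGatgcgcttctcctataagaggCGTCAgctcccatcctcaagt
Chga: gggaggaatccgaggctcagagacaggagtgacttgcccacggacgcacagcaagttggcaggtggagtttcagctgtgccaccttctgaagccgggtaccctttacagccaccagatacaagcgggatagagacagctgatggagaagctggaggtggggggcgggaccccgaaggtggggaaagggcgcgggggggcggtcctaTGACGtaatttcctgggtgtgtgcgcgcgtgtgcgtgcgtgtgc
The Gcg window held TATAAA 24 to 19 bases before the start and 2 copies of CAGATG, whereas the Pyy window held none of the 4 motifs. The Tph1 window held 3 copies of the TGACG core and 1 TAATTA, and the Chga window held 1 TGACG core. The Insl5 window, not printed because it overlaps exon bases of a longer transcript, had 1 TATAAA and 1 CAGATG, as in Gcg. The Chgb window, which lies within an annotated exon, had the cAMP core on both strands, overlapping itself. The TGACG core was thus in the windows of Tph1, Chga and Chgb and not in those of Gcg, Pyy and Insl5, but also in those of Sst, Cck, Nts and Tac1, so that 7 of the 10 genes had it. Among 32851 RefSeq promoters the same 250-base window held the cAMP core in 17.8%, the E-box in 14.4%, the TATA box in 7.59% and the homeodomain core in 4.84%. A match is a description of the letters and not a bound site.

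The enteroendocrine-like cluster was chosen by the 6 marker genes, so their level in it describes the choice and is no check of the name. All 6 passed in 1 of the 24 clusters, and their summed level was 9608 CPM in its WT nuclei and 11969 CPM in its HIF-1α KO nuclei, against 220 and 135 CPM in all others. This cluster held 148 of 4884 WT nuclei (3.03%, 2.57 to 3.55) and 131 of 4702 HIF-1α KO nuclei (2.79%, 2.33 to 3.30). The cluster of enteric neuron-like nuclei, 27 in WT and 22 in HIF-1α KO mice, stood apart from it, although several of the 6 genes also serve in neurons. The 10 neuron markers summed to 932 CPM in WT and 1113 CPM in HIF-1α KO enteroendocrine-like nuclei, with Chat at 0, and to 137 and 89.3 CPM in all others.

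Tph1, Chga and Chgb were found in more enteroendocrine-like nuclei than the other 7 members. Tph1 had 474 UMIs in WT and 869 in HIF-1α KO enteroendocrine-like nuclei, or 1018 CPM (929 to 1114) and 1095 CPM (1023 to 1170). Chgb was at 733 CPM (657 to 815) and 817 CPM (755 to 882), and Chga at 301 CPM (253 to 355) and 484 CPM (437 to 535). Of 148 WT and 131 HIF-1α KO nuclei, 70 and 71 had a UMI of Tph1, 91 and 88 one of Chgb, and 74 and 78 one of Chga. In all other nuclei, where free RNA from lysed cells is also counted, Tph1 was found in 3.10% and 2.93% of nuclei, Chgb in 4.16% and 4.48%, and Chga in 2.66% and 1.99%. Most UMIs of these 3 genes lay in the enteroendocrine-like nuclei, 75.7% and 85.6% of all Tph1 UMIs in WT and HIF-1α KO mice, 62.8% and 75.0% of Chgb UMIs, and 52.2% and 79.8% of Chga UMIs.

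Gcg, Pyy and Insl5, the hormones of L cells, were concentrated in few nuclei. Gcg had 104 UMIs in 14 WT nuclei and 179 UMIs in 24 HIF-1α KO nuclei, Pyy had 388 UMIs in 19 nuclei and 136 UMIs in 32, and Insl5 had 109 UMIs in 15 nuclei and 82 UMIs in 21. The richest WT nucleus alone held 142 Pyy UMIs, and the 3 richest held 85.6% of all Pyy UMIs of the WT enteroendocrine-like nuclei. In HIF-1α KO mice the richest nucleus held 35 Pyy UMIs. Enteroendocrine-like nuclei held 57.1% of Pyy UMIs in WT and 23.5% in HIF-1α KO mice, 41.0% and 27.2% of Insl5 UMIs, and 53.6% and 65.1% of Gcg UMIs. Their levels in all other nuclei were 22.8 and 19.4 CPM for Pyy and 12.3 and 9.64 CPM for Insl5. Single nuclei among these others held up to 9 and 11 Pyy UMIs and up to 11 and 13 Insl5 UMIs. Whether such nuclei were missed endocrine nuclei or mixtures was not tested. After thinning, Pyy was present in 6.08% of the enteroendocrine-like nuclei in WT and 8.40% in HIF-1α KO mice, against 2.55% and 2.15% of all others.

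Sst, Cck and Nts were close to absent from the enteroendocrine-like nuclei. Sst, the hormone of D cells, had 2 UMIs in WT and 3 in HIF-1α KO mice, and Cck had 1 and 6. Nts had 6 UMIs in WT mice, all in 1 nucleus. In HIF-1α KO mice it had 0 of 793576 UMIs, with an exact upper limit of 4.65 CPM. More Sst was found in the few neuron-like nuclei, which held 12 of its 34 UMIs in WT mice, all in 1 nucleus, and 11 of its 50 UMIs in HIF-1α KO mice.

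Tac1, which encodes substance P and neurokinin A, was shared between neurons and endocrine cells. In enteroendocrine-like nuclei it was at 66.6 CPM (45.3 to 94.5) in WT and 65.5 CPM (48.9 to 85.9) in HIF-1α KO mice, with no nucleus above 6 UMIs. In neuron-like nuclei it was at 246 CPM in WT and 1404 CPM in HIF-1α KO mice, and 160 of the 276 UMIs behind the second value lay in 1 nucleus. Enteroendocrine-like nuclei held 9.72% of all Tac1 UMIs in WT and 6.68% in HIF-1α KO mice. In nuclei that were neither, Tac1 stayed at 19.9 CPM in each library.

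**Figure D1:**
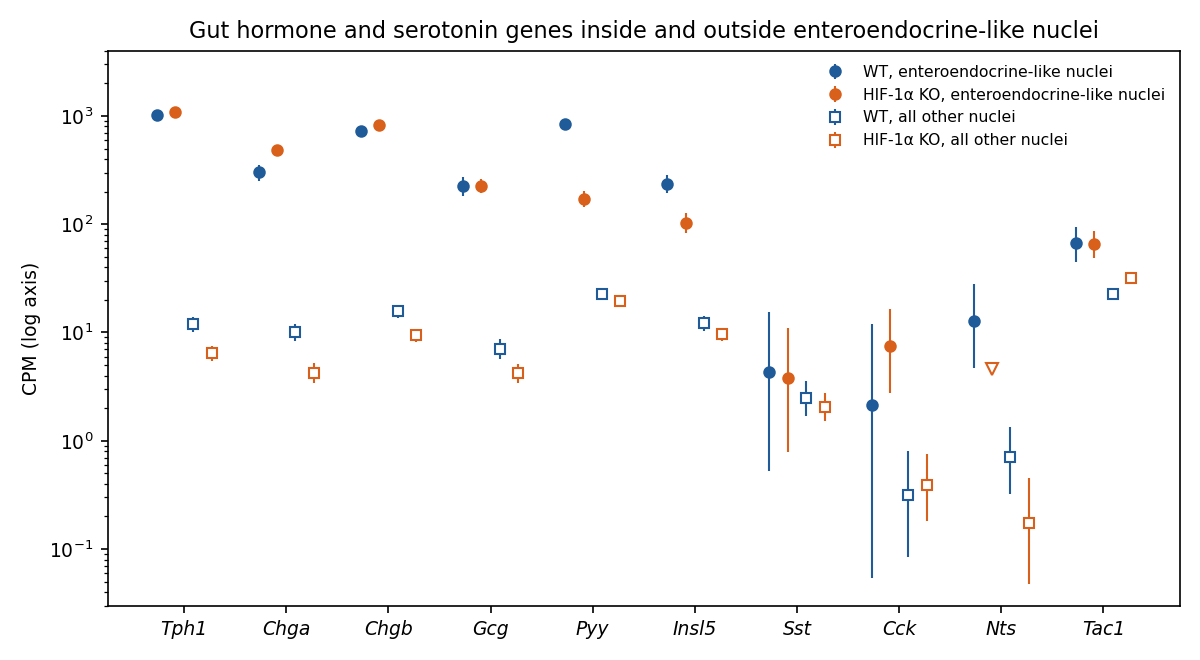
Level of the 10 genes in CPM (log axis) in enteroendocrine-like nuclei (filled circles) and all other nuclei (open squares) of both genotypes, with exact 95% Poisson intervals; the open triangle is the upper limit for Nts, which had 0 UMIs in HIF-1α KO enteroendocrine-like nuclei. Tph1, Chga, Chgb, Gcg, Pyy and Insl5 lie far above the other nuclei, Tac1 less so, and Sst has intervals that overlap those of the other nuclei.

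The 3 hormone genes of L cells shared more nuclei with each other than independent genes would give. Gcg and Pyy shared 10 WT nuclei, where 1.80 would be shared if the 2 genes were spread independently over the enteroendocrine-like nuclei, and 19 HIF-1α KO nuclei, where 5.86 would. Gcg and Insl5 shared 9 and 12 nuclei, against 1.42 and 3.85, and Pyy and Insl5 shared 8 and 15, against 1.93 and 5.13. All 3 hormones were found together in 8 WT and 10 HIF-1α KO nuclei. With the stricter demand of 2 UMIs of each gene, Gcg and Pyy still shared 7 and 10 nuclei, against 0.676 and 2.47.

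The granins shared more nuclei with Tph1, and fewer with Gcg, than independent genes would give. Tph1 and Chgb shared 54 WT and 64 HIF-1α KO nuclei, against 43.0 and 47.7 for independent genes, and Chga and Chgb shared 58 and 67, against 45.5 and 52.4. Chgb and Gcg, by contrast, shared 2 and 4 nuclei, against 8.61 and 16.1. Tac1 and Chgb shared 19 of the 23 nuclei with a Tac1 UMI in WT and 26 of 29 in HIF-1α KO mice, against 14.1 and 19.5. After thinning to 1000 UMIs they shared 7 WT nuclei, against 4.39, but 1 HIF-1α KO nucleus, against 2.78, so the direction in HIF-1α KO mice depended on depth. Tac1 shared 0 and 2 nuclei with Gcg. Chga shared 9 WT and 12 HIF-1α KO nuclei with Pyy, against 9.5 and 19.1, and Chgb and Pyy shared 9 and 8, against 11.7 and 21.5. At 1 UMI the counts with Pyy in WT nuclei were thus closer to those of independent genes. When 2 UMIs were asked for, Chga and Pyy shared 0 and 6 nuclei, against 2.36 and 7.14. Chgb and Pyy then shared 1 and 1, against 4.66 and 8.95.

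Tph1 was found with the L cell hormone genes in fewer HIF-1α KO nuclei than independent genes would give, and at 1 UMI this was not so in WT nuclei. At least 1 of Gcg, Pyy and Insl5 was found in 29 WT nuclei, 16 of which also had Tph1, against 13.7 for independent genes. In HIF-1α KO mice the same was true of 41 nuclei, of which 7 had Tph1, against 22.2. When 2 UMIs were asked for, 3 of 14 WT nuclei and 0 of 27 HIF-1α KO nuclei had both kinds, against 4.82 and 11.95, so that most of the WT nuclei with both kinds had a count of 1 on at least 1 side. The shared count of nuclei depends on depth, and the nuclei are not replicates, so no test was made between the genotypes.

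**Figure D2:**
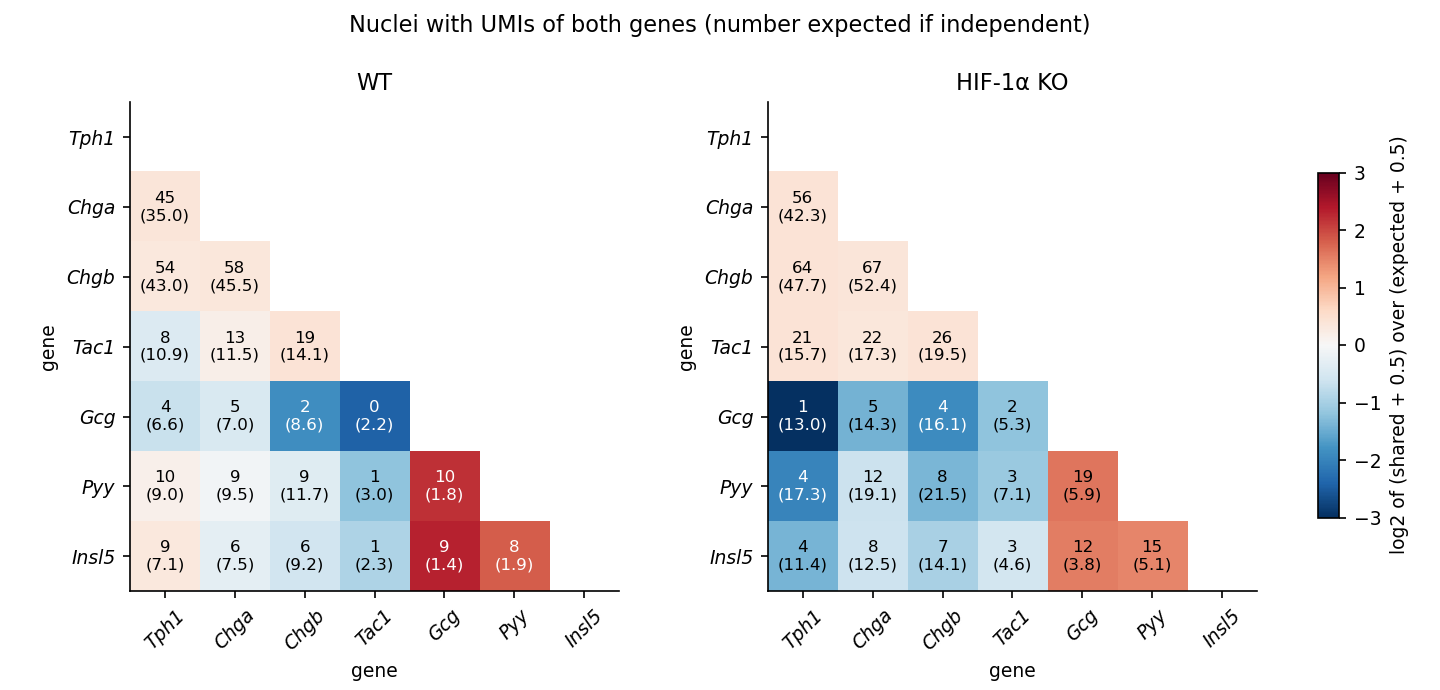
Number of enteroendocrine-like nuclei with at least 1 UMI of both genes, with the number for independent genes in parentheses, for 7 genes in WT and HIF-1α KO mice; red marks more and blue fewer shared nuclei than independent genes would give, on a log2 scale. The block of Gcg, Pyy and Insl5 is red in both libraries (10 and 19 shared nuclei for Gcg and Pyy), and the blocks that join them to Chgb are blue.

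The enteroendocrine-like nuclei were clustered again with the 10 genes and 12 other hormone genes left out of the features. Ppy, the hormone gene of pancreatic polypeptide, was not among those left out, and what its presence did to the split was not tested. Of the 4 subgroups, subgroup 3 (15 WT and 29 HIF-1α KO nuclei) was L cell-like by 5 of 7 L cell markers and led by Agtr1a, Ppy and Pappa2. It held 96.0% of the Pyy UMIs, 93.6% of the Gcg UMIs and 92.7% of the Insl5 UMIs of all enteroendocrine-like nuclei, and 1.3% of the Tph1 UMIs. Etv1 and Isl1, transcription factors of L cells, were at 1100 and 290 CPM there, against 105 and 0 CPM in subgroup 0. Nkx2-2, of the same 7 markers, went the other way, at 403 CPM in subgroup 3 and 530 CPM in subgroup 0. Ffar1 had only 3 UMIs in subgroup 3. Lmx1a, which acts in enterochromaffin cells, was at 59 CPM in subgroup 3 and 2490 CPM in subgroup 0, although it is one of the genes by which the nuclei were told.

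Subgroup 0 (54 and 44 nuclei) was enterochromaffin-like by 3 of 6 markers, with Ddc at 2368 CPM, Slc18a1 at 917 CPM and the transporter gene Slc38a11 at 1997 CPM. Ddc and Slc18a1 encode the enzyme that completes serotonin synthesis and the carrier that loads amines into granules. Subgroup 0 held 69.9% of the Tac1 UMIs and 47.2% of the Chgb UMIs. The highest level of Tph1 was elsewhere, in the unnamed subgroup 2 (26 and 21 nuclei, led by Arhgap36), with 2900 CPM in WT and 2568 CPM in HIF-1α KO mice, against 756 and 1457 CPM in subgroup 0. Tac1 was at 0 and 28 CPM in subgroup 2. The serotonin genes were present in subgroup 2 too, with Ddc at 1214 CPM, Slc18a1 at 723 CPM and Slc38a11 at 993 CPM. In subgroup 3 they were at 407, 18.1 and 22.6 CPM. Markers were compared with the other subgroups together, so subgroup 2 was named against nuclei that included subgroup 0.

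Subgroup 1 (53 and 37 nuclei) stayed unnamed and was led by Megf11, Smad3, Plac8, Slc26a3 and Knl1, which include marker genes of absorptive enterocytes and of cycling cells. Plac8 was at 248 CPM in its WT and 471 CPM in its HIF-1α KO nuclei. Neurog3, the factor that starts the endocrine fate, was found only there among the 4 subgroups, at 41 and 28 CPM. These were 7 UMIs in each library, in 6 WT and 2 HIF-1α KO nuclei. None of the 4 progenitor markers passed in subgroup 1. Pax4 was highest there (16.8 CPM), but Sox4 (52.6 against 83.1 CPM) and Dll1 (2.39 against 8.31 CPM) were higher in subgroup 2. Tph1 was at 401 and 628 CPM in subgroup 1, below subgroups 0 and 2. How far cycling or enterocyte RNA enters these nuclei was not tested.

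**Figure D3:**
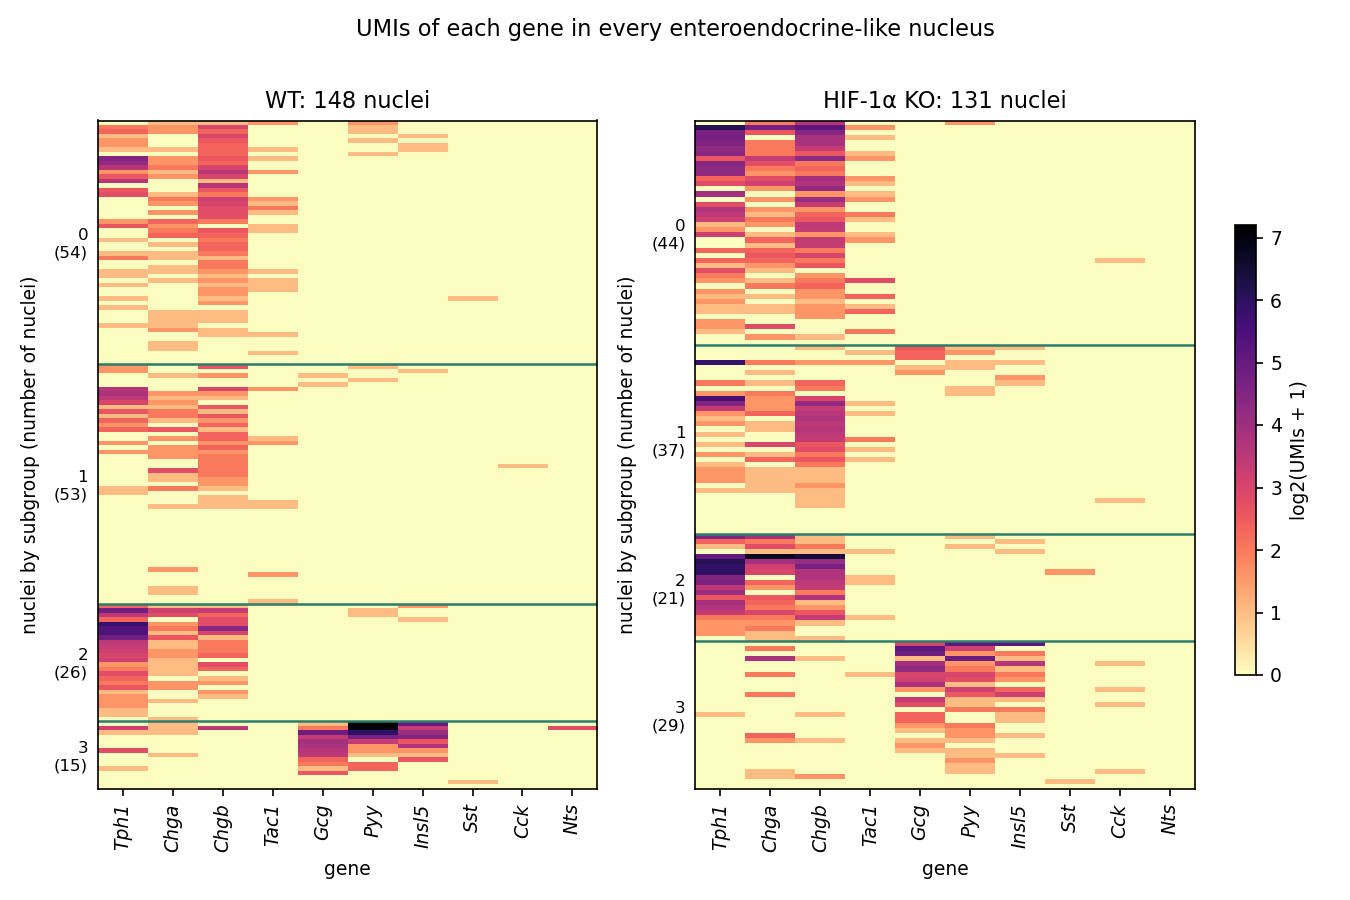
UMIs of each gene, as log2(UMIs + 1), in every enteroendocrine-like nucleus (rows) of each genotype, with nuclei grouped by subgroup and the number of nuclei in parentheses. Gcg, Pyy and Insl5 have most of their UMIs in subgroup 3 (Pyy in 10 of 15 and 23 of 29 nuclei) and are nearly empty in subgroups 0 and 2, where Tph1, Chga and Chgb are dense.

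**Figure D4:**
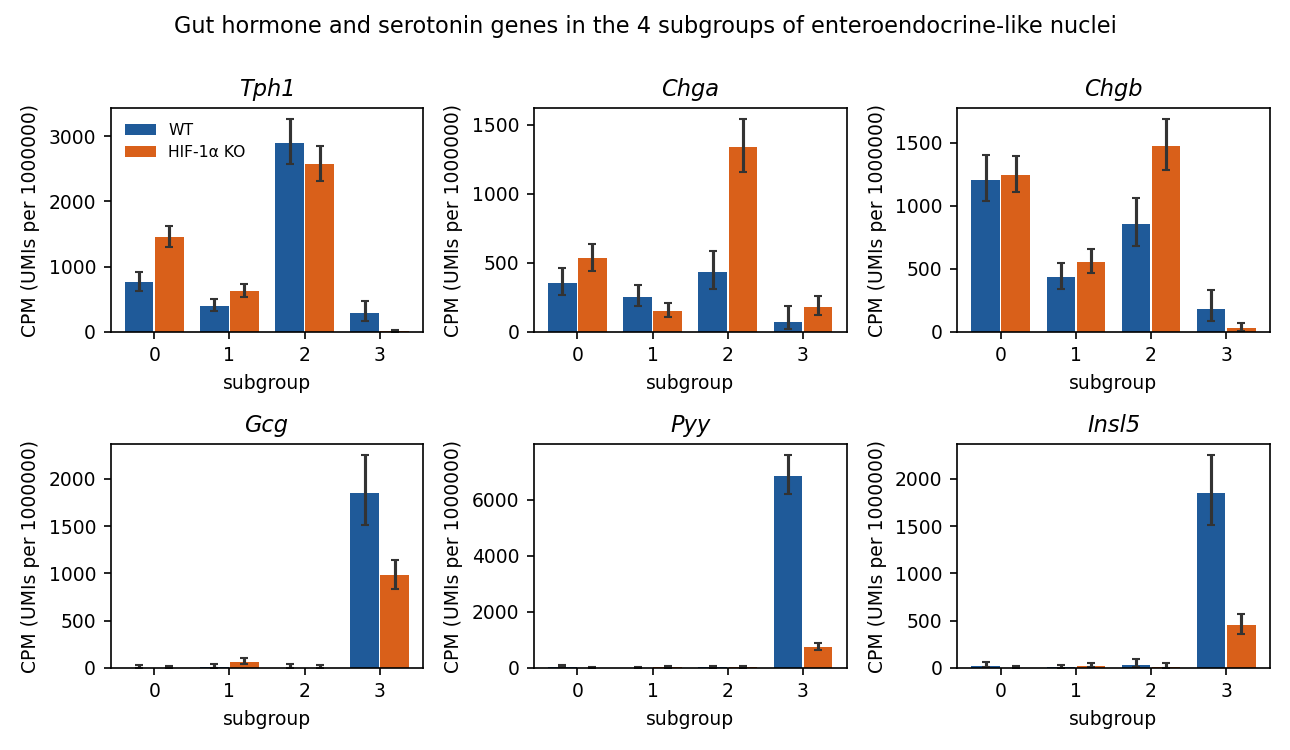
Level of 6 genes in CPM in the 4 subgroups of enteroendocrine-like nuclei (bars from 0, exact 95% Poisson intervals) of WT and HIF-1α KO mice. Pyy in subgroup 3 stands at 6874 in WT and 753 in HIF-1α KO nuclei, and Tph1 is highest in subgroup 2.

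The genes whose pattern over the enteroendocrine-like nuclei was most like that of each member followed the same division. Likeness was the mean over the libraries of Pearson's r of log-normalized values, over 148 WT and 131 HIF-1α KO nuclei and 4783 genes, a description in which nuclei share library and depth. Pyy was most like Ppy, the gene of pancreatic polypeptide (0.73), then Insl5 (0.66) and Pappa2 (0.65). Gcg was most like Agtr1a, an angiotensin receptor gene (0.72), and Insl5 was most like Pyy (0.66). Tph1 was most like the gene of the mechanosensitive channel Piezo2 (0.54), and Chgb most like Lmx1a (0.61). The values for Chga did not pass 0.44 and those for Tac1 did not pass 0.27.

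Between the genotypes, 2 of the 7 members with enough UMIs differed by at least 2-fold with intervals apart, and both were lower in HIF-1α KO mice. A gene was counted so when it had at least 20 UMIs in the enteroendocrine-like nuclei of both libraries together. Pyy was at 834 CPM (753 to 921) in WT and 171 CPM (144 to 203) in HIF-1α KO mice, a log2 ratio of -2.28 (-2.57 to -1.997). Insl5 was at 234 CPM (192 to 282) and 103 CPM (82.2 to 128), a log2 ratio of -1.18 (-1.61 to -0.75). Of 7751 genes tested in the same way, 1.5% were lower, 1.72% higher and 3.21% either, and the median log2 ratio was 0.05 over all of these and 0.01 over the 7 members.

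The third L cell hormone gene did not share this difference. Gcg was at 223 CPM (183 to 271) in WT and 226 CPM (194 to 261) in HIF-1α KO mice, a log2 ratio of 0.01 (-0.34 to 0.38). Tph1 had a log2 ratio of 0.10 (-0.06 to 0.27), Chgb 0.16 (-0.03 to 0.35) and Tac1 -0.02 (-0.69 to 0.67). Chga was higher in HIF-1α KO mice by 0.69 on the log2 scale (0.40 to 0.98), below the 2-fold limit, and 105 of its 384 UMIs lay in 1 nucleus. Sst, Cck and Nts had too few UMIs for a ratio.

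The lower Pyy level rested on very few nuclei. The 3 WT nuclei richest in Pyy held 142, 130 and 60 UMIs of it, at 3078, 5123 and 4773 UMIs of all genes, while the 3 richest HIF-1α KO nuclei held 35, 29 and 8. All 6 belonged to subgroup 3. The 2 richest WT nuclei had 1 and 3 Gcg UMIs, so high Pyy did not go with high Gcg there, and the third had 28. Without the richest nucleus of each library the log2 ratio of Pyy was -2.05, without the 2 richest -1.46, and without the 3 richest -0.58 (-1.12 to -0.04), whose value is within 2-fold. Insl5 had log2 ratios of -1.47, -1.40 and -1.28 in the same steps, with upper bounds of -0.93, -0.77 and -0.55.

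Fewer UMIs of Pyy in HIF-1α KO mice did not mean fewer nuclei with Pyy. In subgroup 3 a Pyy UMI was seen in 10 of 15 nuclei in WT and in 23 of 29 in HIF-1α KO mice, at 6874 CPM and 753 CPM over the subgroup, and Insl5 in 9 and 15 nuclei, at 1855 and 452 CPM. Gcg in subgroup 3 was at 1855 CPM in WT and 982 CPM in HIF-1α KO mice. The L cell-like subgroup made up 10.1% (5.78 to 16.2) of WT and 22.1% (15.4 to 30.2) of HIF-1α KO enteroendocrine-like nuclei, so Gcg was even over all enteroendocrine-like nuclei and lower within subgroup 3. The HIF-1α KO nuclei of subgroup 3 had a median of 5375 UMIs and the WT nuclei 3544. Ppy, the gene most like Pyy over these same nuclei, had 70 UMIs in WT and 26 in HIF-1α KO enteroendocrine-like nuclei, the direction of Pyy. How far this rested on the nuclei richest in Pyy was not tested.

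**Figure D5:**
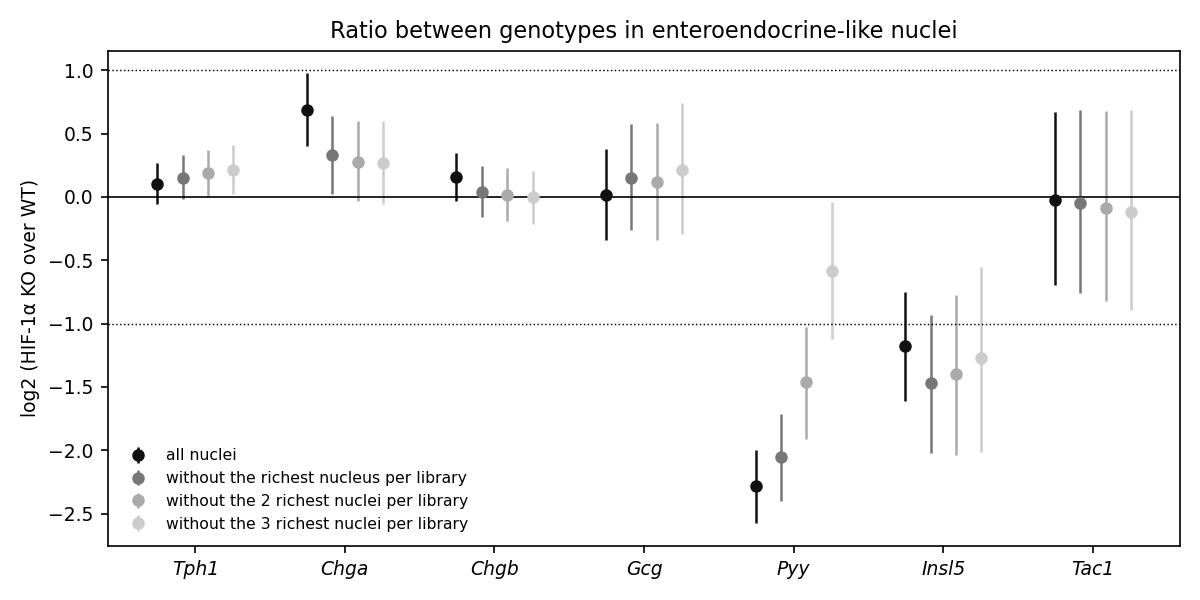
Log2 ratio of HIF-1α KO over WT for 7 genes in enteroendocrine-like nuclei, with exact 95% intervals, for all nuclei (black) and without the 1, 2 or 3 nuclei of each library richest in the gene (grey); dotted lines mark 2-fold. Pyy moves from -2.28 to -0.58 as the richest nuclei are left out, whereas Insl5 stays between -1.47 and -1.18.

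Outside the enteroendocrine-like nuclei the ratios took other values. In all other nuclei Pyy had a log2 ratio of -0.24 and Insl5 -0.35, while Tph1 had -0.89, Chga -1.23, Chgb -0.74 and Gcg -0.74. Tac1 went the other way, with 0.50, but these nuclei include the neuron-like ones, which held 37 Tac1 UMIs in WT and 276 in HIF-1α KO mice. Without the neuron-like nuclei the Tac1 level was alike in both libraries, as given above. Tph1, Chga, Chgb and Gcg, which were not lower inside, were lower outside. In that compartment free RNA and the number of lysed cells cannot be told apart. Over all nuclei Pyy was at 51.3 CPM in WT and 24.5 CPM in HIF-1α KO mice. Markers of other cell types also differed inside the enteroendocrine-like nuclei: the 7 goblet markers summed to 679 CPM in WT and 1115 CPM in HIF-1α KO mice, the 7 absorptive enterocyte markers to 771 and 920 CPM, and the 6 mesenchymal markers to 290 and 155 CPM. Their part in the ratios was not tested.

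Among other genes of the endocrine pathways, 2 were higher and 1 lower in HIF-1α KO mice by at least 2-fold with intervals apart, beside the 1.72% higher and 1.5% lower of all genes tested. Of 15 genes of serotonin handling 5 were abundant enough to test and none passed 2-fold. Ddc was at 1233 and 1385 CPM and Slc18a1 at 552 and 508 CPM, while Slc6a4, the serotonin transporter gene, had 1 and 3 UMIs. Of 11 granule and prohormone processing genes, 9 were tested and 1 was lower in HIF-1α KO mice, the secretogranin gene Scg2, with 40.8 and 11.3 CPM. Scg5, whose product chaperones the convertase PC2, was at 88.1 and 156 CPM, a log2 ratio of 0.83 (0.31 to 1.37) that is below 2-fold. The convertase gene Pcsk1, whose product cuts proglucagon into its gut peptides, was at 34.4 and 49.1 CPM, and Pcsk2, the convertase of pancreatic alpha cells, had 1 UMI in each.

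Of 14 endocrine transcription factors, 10 were tested, and Pax6 (47.3 and 102 CPM) and Rfx6 (204 and 416 CPM) were higher in HIF-1α KO mice. Both act in endocrine differentiation, and 65.0% of the Pax6 UMIs lay in the L cell-like subgroup. That subgroup made up 10.1% of WT and 22.1% of HIF-1α KO enteroendocrine-like nuclei. Within it Pax6 was at 200 CPM (99.9 to 358) in WT and 337 CPM (255 to 438) in HIF-1α KO mice, with intervals that overlapped. Below 2-fold but with intervals away from 0, Etv1 had a log2 ratio of 0.97 (0.60 to 1.35), Neurod1 -0.71 (-1.14 to -0.28) and Nkx2-2 -0.60 (-0.85 to -0.35). The L cell-like subgroup held 70.8% of the Etv1 UMIs. Within it Etv1 was not higher in HIF-1α KO mice, at 1218 CPM in WT and 1060 CPM in HIF-1α KO nuclei. None of 4 sensors tested out of 13, 3 regional Hox genes out of 11, 1 other hormone gene out of 12 or 1 hormone receptor gene out of 21 passed 2-fold. Secretin (Sct) was that hormone gene, with 15 and 31 UMIs. Olfr78, a receptor of short chain fatty acids, was at 335 and 440 CPM. The posterior gene Hoxb13 was at 36.5 and 22.7 CPM in these nuclei, with intervals that overlapped.

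The list of 21 receptor genes covered the products of Gcg, Pyy, Insl5, Sst, Cck, Nts and Tac1. Of these receptor genes, Sort1, a sorting receptor that binds neurotensin, was the one with enough UMIs to test. It was at 135 and 185 CPM in enteroendocrine-like nuclei and 129 and 208 CPM in all others. Serotonin receptor genes were listed with serotonin handling, and among them Htr4 had enough UMIs, at 198 and 277 CPM in enteroendocrine-like nuclei. Glp2r, the receptor of glucagon-like peptide 2, had 0 UMIs in enteroendocrine-like nuclei and was at 35.0 CPM (25.5 to 46.8) in WT and 72.4 CPM (55.6 to 92.6) in HIF-1α KO mesenchymal-like nuclei. Tacr1, the receptor of substance P, was at 220 CPM and 167 CPM in mesenchymal-like nuclei. Glp1r had 7 and 8 UMIs in enteroendocrine-like nuclei against 3 and 0 in all others. The somatostatin receptor genes Sstr1 and Sstr3 each had 3 UMIs in WT and 9 in HIF-1α KO enteroendocrine-like nuclei. Rxfp4, the receptor of INSL5, had 0 and 1 UMIs there.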

How the data were processed

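The authors aligned the reads to mm10 (GRCm38) with Cell Ranger 7.0.1 and deposited UMI counts per gene and nucleus, without normalization and before any filter on quality. The nuclei had been isolated from snap-frozen colon and tagged with a 3′ kit. Whether intronic reads were counted is not given in the sources used here. Nuclei were kept with 400 to 5000 detected genes and up to 10% mitochondrial UMIs, which is also how the study dealt with doublets, and no doublet caller was run here.

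With Seurat 5.3.0 (R 4.3.3), 2000 variable features, integration by canonical correlation anchors, 30 principal components and the clustering resolution 1 were applied, with the 10 genes and 12 other hormone genes taken out of the features. A cluster was named when at least 3 markers had a log2 ratio of at least 1 over the other nuclei and a UMI in 10% of its nuclei. Enteroendocrine-like nuclei were clustered again in the same way with 10 principal components and a resolution of 0.5. Sums, shares and intervals were computed with Python 3.11.15, numpy 2.4.6, pandas 2.3.3 and scipy 1.17.1. Shares have exact Clopper-Pearson intervals, levels exact Poisson intervals and ratios exact conditional intervals. For likeness, values were log-normalized to 10000 UMIs per nucleus, and genes with at least 50 UMIs were compared. A count of 0 was taken to allow up to 3 UMIs. edgeR 4.0.16 and DESeq2 1.42.0 were used for scaling factors only.

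The genes, marker lists and gene lists were chosen with earlier results of these data known. The alternatives were other clusterings, assignment of each nucleus by its own markers, all barcodes, other scalings, thinning, subtraction of the level in other nuclei and leaving out the richest nuclei.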

Additional observations from a re-analysis of the deposited data

Results flagged for a closer look

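UMIs of the gut hormone and serotonin genes were also present in the nuclei that the filter had left out, 12 in WT and 70 in HIF-1α KO mice, which no comparison above used. In the WT nuclei left out there were 16 Chgb and 8 Tac1 UMIs. In the HIF-1α KO nuclei left out there were 68 Tph1, 21 Chga, 30 Chgb, 17 Pyy, 17 Sst and 44 Tac1 UMIs. Each of these counts was above the 3 UMIs that a count of 0 allows. Some lay mostly in 1 nucleus, with 12 of the 16 Chgb UMIs in 1 WT nucleus and 53 of the 68 Tph1 UMIs in 1 HIF-1α KO nucleus. In HIF-1α KO mice the richest left-out nucleus held 14 UMIs of Chgb and 9 of Sst. For Chga, Pyy and Tac1 it held 6, 2 and 7. When all barcodes were clustered, 1 WT and 4 HIF-1α KO nuclei of those left out fell into the enteroendocrine-like clusters, with medians of 5193 and 6166 detected genes. The 17 Sst UMIs compare with 3 in all HIF-1α KO enteroendocrine-like nuclei that were kept. Whether the left-out nuclei were doublets was not tested.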

How the results depend on the processing

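The count of members at least 2-fold apart between the genotypes with intervals apart was 2, Pyy and Insl5, under other clusterings, all barcodes, assignment by own markers, both scalings and subtraction of the level of other nuclei. It was 1 with nuclei weighted equally or thinned to 1000 UMIs (Pyy; Insl5 was at -0.71 and at -1.10, the latter with intervals that met), and 1 without the 3 richest nuclei of each library (Insl5), the last chosen after seeing the data, as were the settings without the richest nucleus and without subgroup 1. Over 15 settings the log2 ratio was -2.47 to -0.58 for Pyy, -1.47 to -0.71 for Insl5, -0.20 to 0.54 for Gcg and 0.27 to 0.96 for Chga. Of the 45 pairs of members, 3 were shared by at least 5 nuclei in each library at a ratio of 2 or more over independent genes, and 1 after thinning to 1000 UMIs, where fewer UMIs remain. No called value changed sign, but Chgb and Tac1 in HIF-1α KO nuclei went from more shared nuclei than independent genes give to fewer (1 against 2.78) after thinning. No paired analysis was possible because each genotype had 1 library, and no library could be left out. Depth limits what can be said of Sst, Cck and Nts, and a difference between animals cannot be told from one between genotypes.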
